A study of Mus musculus with 3 samples.

Results

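The cells described here were alveolar macrophages, the resident phagocytes of the airspace, in which 7 genes together took the largest share of transcripts: Rgcc, Cd36, Colec12, Gpnmb, Scd1, Slc39a2 and Dysf. They were found among 15809 cell barcodes from mouse bronchoalveolar lavage. A barcode was eligible with at least 5000 unique molecular identifiers (UMIs, 1 per captured transcript), at least 300 genes, at most 10% mitochondrial UMIs and at least 3 of 8 alveolar macrophage genes detected. Of 10844 eligible cells, ranked over the libraries pooled by the share of UMIs from the 7 genes, the top 5%, 542 cells, were taken and are called members below. The other 10302 eligible cells are the cells they are set against.

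The donors were wild-type C57BL/6J mice aged 12 weeks. Their exposure lasted 3 hours and was to filtered air, to ozone at 1 ppm or to ozone at 1.5 ppm, and the right lung lobes were washed 22 to 24 hours later. Cells of 3 to 4 mice were pooled per exposure into 1 droplet library of transcript 3' ends, so single mice cannot be followed and each exposure is 1 library. Members were compared with the other cells within each library, over the 3 libraries, while exposures could be described but not tested. Since the 7 genes chose the members, their own levels are a description only.

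Alveolar macrophages clear surfactant, the lipid film that lines the alveoli, by taking it up, breaking it down in lysosomes and storing, burning or exporting the lipid. Cd36 binds oxidised lipoproteins and long-chain fatty acids, Colec12 is a scavenger receptor with a collagen-like stem and a lectin head, and Gpnmb is a glycoprotein of phagosomes and lysosomes that macrophages make under lysosomal load. Scd1 introduces a double bond into saturated fatty acids, Slc39a2 imports zinc, Dysf reseals torn plasma membrane and Rgcc was named for a role in the cell cycle response to complement.

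The libraries held 42825676 to 95403078 UMIs in 3233 to 7269 barcodes. Members had more UMIs than the other eligible cells of their library, with medians of 17965 UMIs in members and 13799 in the other cells after air, 22040 and 15711 after 1 ppm, and 16603 and 13479 after 1.5 ppm. Median mitochondrial shares lay between 2.30 and 4.26% in members and between 2.29 and 4.09% in the other cells. Any pair of libraries shared between 4 and 10 cell barcodes, and no barcode was a member in 2 libraries. Doublets were not called, and the largest member held 58875 UMIs against 97595 in the largest other cell.

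Members and other cells had both been gated on 8 alveolar macrophage genes, so their detection is no check of identity. The median cell had 7 of the 8 detected in either set, and 6 among the 1.5 ppm members. Levels are given in CPM, UMIs of a gene per 1000000 UMIs. Chil3, a secreted chitinase-like protein typical of alveolar macrophages, stood at 6729.7, 8514 and 5345 CPM in members after air, 1 ppm and 1.5 ppm, against 7659, 9642 and 6208 CPM in the other cells, and did not pass the test. Bhlhe41, a transcription factor of alveolar macrophage identity, stood at 245, 375 and 361 CPM in members, against 109, 151 and 159 CPM in the other cells, and rose by 1.32 ± 0.07 (edgeR adjusted p = 3.42e-08). Changes are log2 fold changes of members over other cells. The ± value is the standard error implied by the edgeR test, which shares spread between genes. It is not the spread of the 3 library contrasts alone. Ear2, a ribonuclease, fell by 0.34 ± 0.07 (edgeR adjusted p = 0.0029). Of the 8 gate genes 3 were higher, 1 was lower and 4 did not pass, and with sums scaled by their totals alone 2 were higher and 4 lower.

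Cd36 and Gpnmb were found in nearly every member and the other score genes were not. A UMI of Cd36 was found in 96.3% of members and one of Gpnmb in 97.6%, against 69.9% for Slc39a2, 54.4% for Rgcc, 51.5% for Colec12, 49.1% for Scd1 and 47.4% for Dysf. The median member had 5 of the 7 genes detected and the median other cell 2, and 36 members had all 7. With every cell thinned to 5000 UMIs, Cd36 was found in 88.0% and Colec12 in 39.3% of members. Among 63 T cell barcodes, with a median of 4162 UMIs against 19249 in members, 4.76% had a UMI of Cd36, 3.17% one of Gpnmb, 1.59% one of Scd1 and 34.9% one of Rgcc. None of them had one of Colec12, Slc39a2 or Dysf, which allows a share of up to 4.76% of barcodes with a UMI at that depth and sets no limit on cells expressing the gene. Among 137 neutrophil barcodes, with a median of 2285 UMIs, 13.9% had a UMI of Gpnmb, 16.8% one of Rgcc and 2.92% one of Cd36. In members Gpnmb stood at 677 to 965 CPM and Rgcc at 201 to 270 CPM, against 557 and 175 CPM in the neutrophil barcodes. These barcodes had been picked by at least 3 of 10 neutrophil markers and fewer than 3 gate genes. Their 557 CPM of Gpnmb came from 181 UMIs in 13.9% of them. Both genes were thus found outside the members as well, in barcodes whose make-up was not checked further. The working name of these cells, with Cd36, Colec12 and Gpnmb side by side, holds for their summed UMIs, but a UMI of Colec12 was found in only 51.5% of them.

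In members after air, 1 ppm and 1.5 ppm, Cd36 stood at 891, 906 and 523 CPM, against 266, 206 and 142 CPM in the other cells. Gpnmb stood at 677, 722 and 965 CPM in members, against 137, 137 and 167 CPM in the other cells. Colec12 stood at 372, 459 and 318 CPM in members, against 28.8, 44.0 and 28.8 CPM in the other cells. Among the members, Cd36 was thus lowest and Gpnmb highest after 1.5 ppm. Rgcc reached 255, 201 and 270 CPM in members, against 28.0, 24.1 and 22.4 CPM in the other cells. Slc39a2, Scd1 and Dysf stayed between 54.5 and 208 CPM in members and between 13.4 and 41.2 CPM in the other cells.

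The score had no gap at the threshold. Its median was 2180 CPM in members and 333 CPM in the other cells, the last 10 members lay between 1661 and 1679 CPM, and the first 10 cells outside lay between 1644 and 1659.8 CPM. When each gene was left out in turn and cells were ranked by the other 6, the top 5% still held more of the gene left out, by 1.98-fold for Colec12 after 1 ppm to 6.63-fold for Rgcc after 1.5 ppm. The 7 genes had been chosen on these cells, so this only describes how they went together.

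Different members were led by different score genes. Cd36 gave the most score UMIs in 215 members (39.7%), Gpnmb in 167 (30.8%), Colec12 in 106 (19.6%) and Rgcc in 44 (8.12%). Gpnmb led 21.8% of members after air, 19.1% after 1 ppm and 54.2% after 1.5 ppm. Cd36 led 47.3% of members after air, 51.1% after 1 ppm and 18.1% after 1.5 ppm. By leading gene, the members of the 1.5 ppm library stood apart from those of the other 2 libraries.

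Members were found at different shares in the 3 libraries. They were 188 of 3287 eligible cells after filtered air (5.72%, exact 95% binomial interval 4.95 to 6.57%), 188 of 2117 after 1 ppm (8.88%, 7.70 to 10.2%) and 166 of 5440 after 1.5 ppm (3.05%, 2.61 to 3.54%). The share after 1 ppm was 1.55 times that after air (interval 1.28 to 1.89) and the share after 1.5 ppm was 0.534 times that after air (0.435 to 0.654). These intervals cover counting error only, with 1 pool per exposure, and a share cannot tell more cells of one kind from fewer of another. The order held with cells thinned to 5000 UMIs, at 5.20, 8.88 and 3.36%. Its size depended on the score genes: without Cd36 in the score the 1.5 ppm share was 0.816 times that after air, and without Gpnmb 0.364 times.

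**Figure D1:**
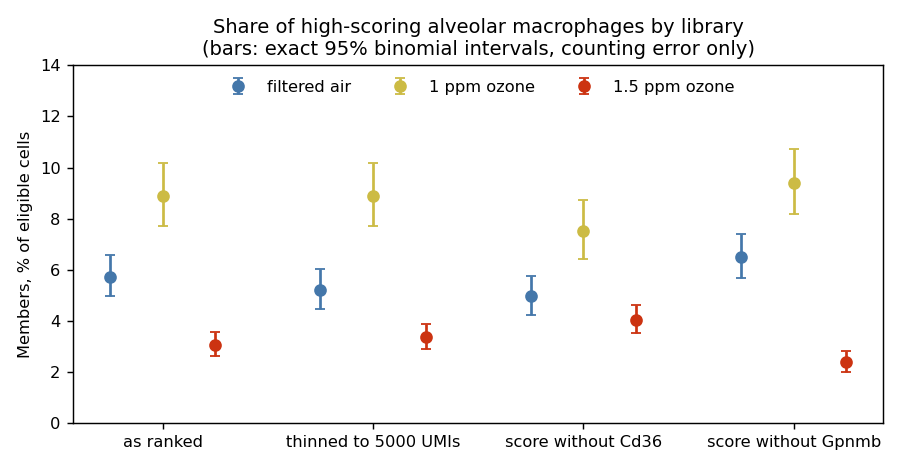
Share of eligible cells that were members (percent, y axis) in each library, with exact 95% binomial intervals, for the ranking as used, for cells thinned to 5000 UMIs and for scores without Cd36 or Gpnmb. The 1 ppm library is highest and the 1.5 ppm library lowest in each of the 4 settings, and the distance between 1.5 ppm and air shrinks without Cd36 and widens without Gpnmb.

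Outside the 7 score genes, members differed from the other cells of their library in 2689 of 13536 genes tested, 19.9%. Of these, 1367 (10.1% of the genes tested) were higher in members and 1322 (9.77%) were lower, at an edgeR adjusted p under 0.05, and the median log2 fold change over all genes was -0.02. The balance of directions depended on the scaling: higher genes made up 50.8% of the calls as fitted and 31.4% with sums scaled by totals alone, which shifted the median of all genes by -0.09. Leaving out the 1 ppm library left 646 higher and 439 lower genes, and leaving out the air library 966 and 816. With cells thinned to 5000 UMIs before ranking, 769 were higher and 645 lower.

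Among called genes with at least 20 CPM in the higher set of every library and the same sign in each, the largest rise was that of Cxcr1, a receptor for CXC chemokines best known on neutrophils. It stood at 42.3, 53.1 and 38.3 CPM in members after air, 1 ppm and 1.5 ppm, against 4.63, 4.45 and 5.06 CPM in the other cells. Members and other cells did not overlap, and it rose by 3.32 ± 0.15 (edgeR adjusted p = 8.96e-09). Its paralogue Cxcr2 stood at 16.5, 8.47 and 9.16 CPM in members, against 4.09, 2.32 and 2.89 CPM in the other cells, and rose by 1.95 ± 0.21 (edgeR adjusted p = 1.65e-05). Of the 6 neutrophil markers tested, Cxcr2 and S100a8 were higher, and Csf3r, G0s2, Trem1 and S100a9 were lower. The neutrophil genes Mmp9 and Il1r2 were at 0 UMIs in members, and the list of 10 summed to 67.9, 65.2 and 71.0 CPM in members against 69.7, 65.5 and 73.7 CPM in the other cells. The part of neutrophil RNA in the Cxcr1 level was not tested beyond these values. Genes said here and below not to overlap had been named for their size of change or after their values were seen. The share of all genes tested without overlap is not given here.

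Genes for secreted and surface signals followed. Plpp3, a phosphatase that degrades lysophosphatidic acid, stood at 64.7, 67.5 and 69.0 CPM in members, against 11.7, 7.70 and 9.87 CPM in the other cells. Gdf15, a stress-induced cytokine of the TGF-beta family, stood at 106, 72.8 and 115 CPM in members, against 18.4, 11.1 and 24.0 CPM in the other cells. Igf1, an insulin-like growth factor, stood at 96.0, 101 and 113 CPM in members, against 36.3, 25.1 and 26.1 CPM in the other cells. Each was higher in the members of every library than in the other cells of any library. Plpp3 rose by 2.89 ± 0.13 (edgeR adjusted p = 8.96e-09), Gdf15 rose by 2.58 ± 0.10 (edgeR adjusted p = 2.8e-09) and Igf1 rose by 1.94 ± 0.12 (edgeR adjusted p = 1.63e-07). Cd200, the ligand of an inhibitory myeloid receptor, rose by 1.92 ± 0.09 (edgeR adjusted p = 1.96e-08). Stra6l, a receptor for retinol-binding protein, rose by 2.26 ± 0.13 (edgeR adjusted p = 1.38e-07).

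The rest of the 12 highest by that limit included genes of lysosomes and lipid carriage. Cd63, a tetraspanin of late endosomes and lysosomes, stood at 558, 668 and 867 CPM in members, against 164, 197 and 234 CPM in the other cells. Fabp5, a cytosolic fatty acid carrier, stood at 1598, 2379.9 and 4724 CPM in members, against 597, 638 and 1412 CPM in the other cells. Its relative Fabp4 stood at 383, 407 and 1102 CPM in members, against 157, 130.4 and 257 CPM in the other cells. None of these 3 genes overlapped between members and other cells, although the Fabp5 level of the other cells after 1.5 ppm came close to that of the members after air. Cd63 rose by 1.90 ± 0.06 (edgeR adjusted p = 1.79e-09), Fabp5 rose by 1.78 ± 0.09 (edgeR adjusted p = 3.46e-08) and Fabp4 rose by 1.78 ± 0.11 (edgeR adjusted p = 2.2e-07). Mreg and Rilpl2, linked to the transport of lysosome-related organelles, rose by 2.10 ± 0.10 and rose by 2.05 ± 0.08, and Aph1c, a gamma-secretase subunit, rose by 1.77 ± 0.11.

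**Figure D2:**
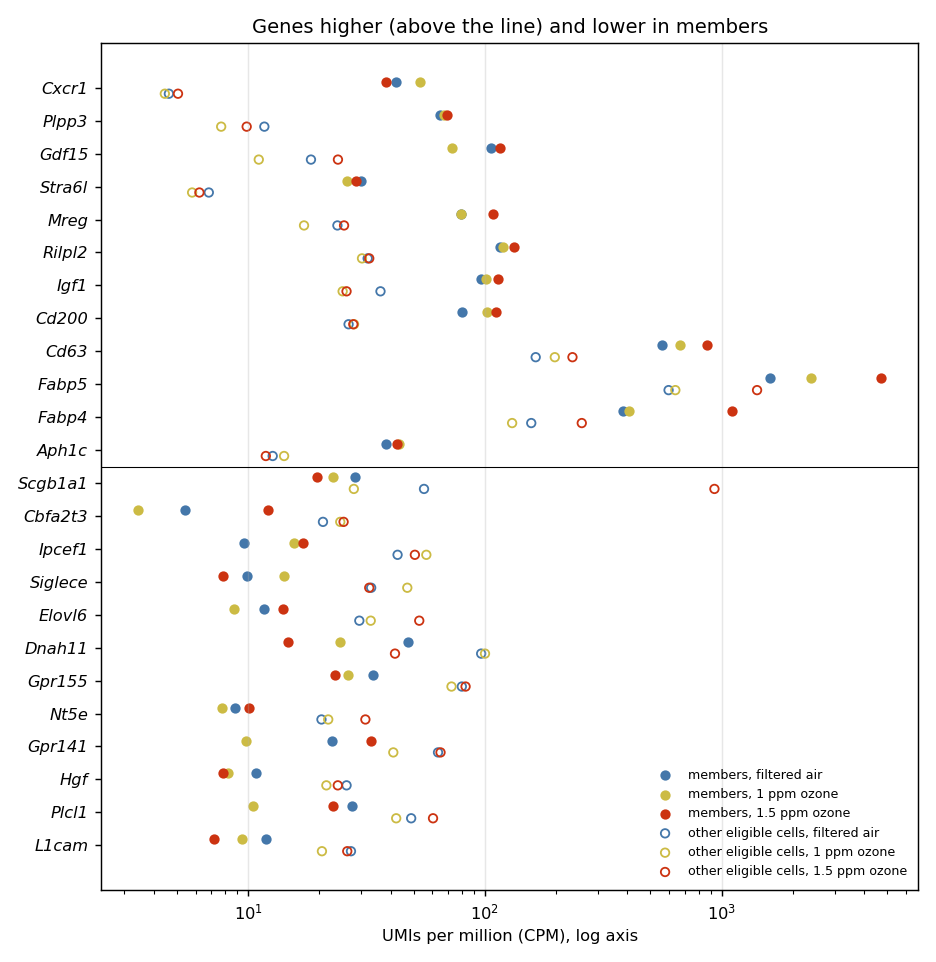
Levels (CPM, log axis) of the 12 most raised and 12 most lowered genes among those with at least 20 CPM in the higher set of every library, in members (filled points) and in the other eligible cells (open points), coloured by library. Filled and open points separate for Cxcr1, Plpp3 and Gdf15, and Scgb1a1 has a single open point, at 933 CPM after 1.5 ppm, far from the rest.

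The 12 largest falls by the same limit were of genes with varied roles. Siglece, an inhibitory receptor for sialic acids, stood at 9.94, 14.2 and 7.85 CPM in members, against 33.1, 47.0 and 32.5 CPM in the other cells, and fell by 1.71 ± 0.13 (edgeR adjusted p = 6.87e-07). Elovl6, which elongates palmitate, stood at 11.6, 8.70 and 14.1 CPM in members, against 29.5, 33.0 and 52.9 CPM in the other cells, and fell by 1.64 ± 0.13 (edgeR adjusted p = 1.64e-06). Neither overlapped. Dnah11, a dynein heavy chain of cilia, stood at 47.4, 24.5 and 14.7 CPM in members, against 96.5, 100.2 and 41.7 CPM in the other cells, and fell by 1.40 ± 0.14 (edgeR adjusted p = 1.03e-05). Cbfa2t3, a corepressor, fell by 1.75 ± 0.23, Ipcef1 fell by 1.75 ± 0.12, Gpr155 fell by 1.39 ± 0.11, Nt5e, which makes adenosine, fell by 1.35 ± 0.14, Gpr141 fell by 1.35 ± 0.14 and the growth factor gene Hgf fell by 1.31 ± 0.14. Plcl1 fell by 1.26 ± 0.15 and L1cam fell by 1.26 ± 0.15. Scgb1a1, the secretoglobin of airway club cells, stood at 28.4, 22.9 and 19.6 CPM in members, against 55.4, 28.0 and 933 CPM in the other cells, and fell by 2.57 ± 0.67 (edgeR adjusted p = 0.0149). Its log2 fold change was 0.14 once cells with 2 or more markers of another cell type were left out, and Scgb1a1 is itself among those markers.

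Lysosomal genes rose as a group. Counts of this and the later lists are to be set beside 10.1% higher and 9.77% lower over all genes tested. The lists had been chosen with earlier results of these data known, so their counts are a description and not independent support. Of 26 tested genes of the lysosomal membrane, its proton pump and its MITF/TFE regulators and targets, 22 were higher and 1 lower, with a median log2 fold change of 0.59 against -0.02 over all genes. The proton pump subunit gene Atp6v1c1 stood at 339.9, 339.7 and 422 CPM in members, against 166, 142 and 182 CPM in the other cells, and rose by 1.26 ± 0.07 (edgeR adjusted p = 6.82e-08). Fnip2, a partner of folliculin at the lysosome, rose by 1.37 ± 0.09 (edgeR adjusted p = 2.16e-07), and Mcoln1, a lysosomal calcium channel, rose by 0.40 ± 0.10 (edgeR adjusted p = 0.0102). Rragd, a GTPase that ties lysosomes to mTORC1, stood at only 3.12, 5.04 and 4.25 CPM in members, against 0.560, 0.541 and 0.711 CPM in the other cells, and rose by 2.85 ± 0.41 (edgeR adjusted p = 0.000223). Among the regulators themselves Tfeb rose by 0.57 ± 0.07 and Tfec fell by 0.34 ± 0.08, while Mitf and Tfe3 did not pass, at -0.18 ± 0.07 and 0.13 ± 0.09. The list gave 22 higher and 2 lower with totals alone and 23 and 1 after thinning.

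Promoter sequence is shown for Mcoln1 and Ctsd because each rose in members and holds the 8-letter element TCACGTGA, the form of E-box that MITF and TFE factors bind in lysosomal genes. Both are RefSeq sequences of build GRCm38.p6, 250 bases before the transcript start, 5′ to 3′ on the gene's strand, with the element in capitals. Mcoln1 lies at chr8:3500269-3500518 on the + strand, with the element 46 to 39 bases before the start, and Ctsd at chr7:142387828-142388077 on the - strand, with it 99 to 92 bases before.
Mcoln1: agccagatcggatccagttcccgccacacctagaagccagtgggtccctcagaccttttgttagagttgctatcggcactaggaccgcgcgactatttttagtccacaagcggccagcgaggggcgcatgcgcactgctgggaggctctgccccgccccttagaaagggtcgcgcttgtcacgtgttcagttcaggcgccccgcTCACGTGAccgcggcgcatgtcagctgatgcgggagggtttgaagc
Ctsd: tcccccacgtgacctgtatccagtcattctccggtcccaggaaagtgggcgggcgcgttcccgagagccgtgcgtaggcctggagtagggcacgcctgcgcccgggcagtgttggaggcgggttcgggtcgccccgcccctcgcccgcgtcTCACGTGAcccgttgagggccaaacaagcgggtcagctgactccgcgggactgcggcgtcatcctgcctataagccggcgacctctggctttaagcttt

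The element reads the same on both strands and contains the shorter E-box CACGTG. It was found in 0.785% of all 32851 promoters of the table and for 0.907% of its 27025 genes. In the list of lysosomal membrane genes and MITF/TFE regulators and targets, 3 of the 23 genes with a promoter in the table held it. Of the cathepsin genes 2 of 10 did. CACGTG was found in 6.02% of all promoters and for 6.86% of genes, and in 6 of those 23 and 5 of those 10 genes. The list of 23 holds targets of these factors by design, so its shares are no test against all genes. A match of letters is a description and not a binding site.

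Proteases and lipid-degrading enzymes of the lysosome moved in the same direction. Among cathepsins, 7 of 12 were higher and 1 lower, with a median of 0.84. Ctsd, an aspartic protease, stood at 4799.7, 5390.3 and 4607 CPM in members, against 2508, 2493 and 2289 CPM in the other cells. Ctsk, a collagen-degrading cysteine protease, stood at 757, 943 and 1274 CPM in members, against 308, 439 and 472 CPM in the other cells. Neither overlapped: Ctsd rose by 1.11 ± 0.07 (edgeR adjusted p = 2.7e-07) and Ctsk rose by 1.37 ± 0.07 (edgeR adjusted p = 3.46e-08). Ctsc fell by 0.25 ± 0.06 and Ctss did not pass, at 0.13 ± 0.07. Of 19 enzymes and carriers of lysosomal lipid breakdown, 12 were higher and 2 lower, with a median of 0.30. Psap, the precursor of the saposins that lift sphingolipids out of membranes, rose by 1.00 ± 0.07, Lipa, the lysosomal acid lipase, rose by 0.92 ± 0.07, Gla, a glycolipid-cleaving enzyme, rose by 1.38 ± 0.10 and Npc1, a cholesterol exporter of the lysosome, rose by 0.64 ± 0.06. Ppt1 and Gm2a were the lower ones, and fell by 0.34 ± 0.06 and fell by 0.22 ± 0.07.

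Uptake, storage and burning of fatty acids changed in part. Of 29 tested genes of fatty acid uptake and lipid droplets, 10 were higher and 5 lower, with a median of 0.14. Besides Fabp4 and Fabp5, Plin2, the coat protein of lipid droplets, stood at 1207, 1163 and 1025 CPM in members, against 739, 657 and 586 CPM in the other cells, and rose by 0.87 ± 0.07 (edgeR adjusted p = 8.39e-07). Lpl, which releases fatty acids from lipoproteins, rose by 0.50 ± 0.08, and Mgll, which completes triglyceride breakdown, rose by 0.71 ± 0.06. Fabp1, a further carrier, fell by 0.92 ± 0.11, Dgat2, which makes triglycerides, fell by 0.70 ± 0.16, and Cidec, which fuses droplets, fell by 0.46 ± 0.08. Of 26 genes of fatty acid oxidation, 10 were higher and 0 lower, with a median of 0.13, but 5 were higher and 3 lower with totals alone. Pdk4, a kinase that spares glucose, stood at 30.7, 30.9 and 14.4 CPM in members, against 8.70, 7.91 and 4.57 CPM in the other cells, and rose by 1.92 ± 0.14 (edgeR adjusted p = 7.41e-07). Acadl, which opens the oxidation cycle, rose by 0.85 ± 0.07, whereas Cpt1a, the gate of mitochondrial import, did not pass, at -0.15 ± 0.06.

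Sterol synthesis genes were lower and sterol export genes higher. Of 24 cholesterol synthesis genes, 15 were lower and 0 higher, with a median of -0.54, and after thinning 8 were lower. Idi1, an enzyme of isoprenoid synthesis, stood at 27.3, 16.7 and 50.7 CPM in members, against 41.8, 54.4 and 106 CPM in the other cells, and fell by 1.03 ± 0.14 (edgeR adjusted p = 0.000117). Within each library the members were below the other cells, though levels of different libraries overlapped. Stard4, a sterol carrier, fell by 1.24 ± 0.15. Of 12 LXR target genes, many of which export sterol, 7 were higher and 1 lower, with a median of 0.47. Abca1 stood at 347, 336 and 211 CPM in members, against 216, 218 and 124 CPM in the other cells, and rose by 0.79 ± 0.06 (edgeR adjusted p = 1.43e-06), and Abcg1 rose by 0.31 ± 0.07. Apoe stood at 53.4, 60.9 and 252 CPM in members, against 40.3, 39.3 and 35.9 CPM in the other cells. It rose by 1.50 ± 0.33 (edgeR adjusted p = 0.00503), with by far the largest gap after 1.5 ppm. For Apoe 1 cell held 32.0% of the UMIs in the 1.5 ppm members and 1 cell 33.0% in the air members. Of 16 genes of fatty acid synthesis, 2 were higher and 4 lower (Elovl6, Fads2, Pnpla3 and Acly), with a median of -0.21. The 12.5% higher lay near the 10.1% over all genes tested, and 25% were lower against 9.77%.

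Scavenger receptors other than Cd36 and Colec12 did not move as one. Of 19 tested, 7 were higher and 4 lower, with a median of 0.10. Cd68, a lysosomal receptor of macrophages, stood at 374, 555 and 631 CPM in members, against 217, 282 and 288 CPM in the other cells, and rose by 1.06 ± 0.07 (edgeR adjusted p = 5.1e-07). Trem2, a receptor for lipids, rose by 0.62 ± 0.14 and Olr1, a receptor for oxidised lipoprotein, rose by 0.36 ± 0.07. The classic scavenger and mannose receptor genes Msr1 and Mrc1 did not pass, at 0.02 ± 0.13 and -0.10 ± 0.07. Scarb1, which exchanges cholesterol with high-density lipoprotein, fell by 0.29 ± 0.07, and the inhibitory Fc receptor gene Fcgr2b fell by 0.86 ± 0.09.

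Genes described for lipid-associated macrophages of fat tissue and plaques were mostly higher. Of 22 tested, 20 were higher and 0 lower, with a median of 0.92. The list shares Cd63, Fabp4, Fabp5, cathepsins and others with the lists above. Lgals3, a galectin of phagocytes, stood at 2303, 3283 and 2819 CPM in members, against 1369.6, 1526 and 1634 CPM in the other cells, and rose by 0.97 ± 0.08 (edgeR adjusted p = 2.36e-06). Anxa5, which binds exposed phosphatidylserine, rose by 0.65 ± 0.07, and Tyrobp, the adaptor of Trem2, rose by 0.51 ± 0.07. Spp1 (osteopontin) and Vim did not pass, at 0.24 ± 0.15 and -0.04 ± 0.09.

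Nrf2 targets, which answer oxidative stress, were higher in 14 of 20 genes and lower in 1, with a median of 0.68. Slc7a11, the cystine importer, stood at 266, 42.3 and 100.4 CPM in members, against 58.7, 20.9 and 37.8 CPM in the other cells, and rose by 1.71 ± 0.15 (edgeR adjusted p = 3.05e-06). Hmox1, which degrades haem, stood at 749, 360.5 and 324 CPM in members, against 363, 145 and 179 CPM in the other cells, and rose by 1.17 ± 0.08 (edgeR adjusted p = 5.99e-07). Both were highest after air in either set of cells, and 1 cell held 27.4% of the Slc7a11 UMIs of the air members. After air they were higher still in the cells just outside the members, from the top 5 to the top 10% of the score, at 1068 CPM for Hmox1 and 307 CPM for Slc7a11. The ferritin subunit genes Ftl1 and Fth1, whose processed copies in the genome make their counts less certain, rose by 0.90 ± 0.08 and rose by 0.85 ± 0.08. Together they took 3.26, 4.25 and 6.30% of all UMIs in members after air, 1 ppm and 1.5 ppm, against 2.13, 2.37 and 3.45% in the other cells. Nqo1 and Gsr did not pass, at 0.52 ± 0.34 and 0.07 ± 0.06.

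Genes of the integrated stress response, in which ATF4 raises amino acid synthesis and import, were also higher. This list was drawn up after values had been seen, and its counts, like those of the other lists, are a description. Of 25 genes 15 were higher and 0 lower, with a median of 0.64. Asns, which makes asparagine, stood at 15.6, 21.3 and 12.1 CPM in members, against 2.65, 2.20 and 2.05 CPM in the other cells. Trib3, a pseudokinase that damps the response, stood at 8.52, 12.4 and 5.56 CPM in members, against 1.27, 1.38 and 1.25 CPM in the other cells. Neither overlapped: Asns rose by 2.90 ± 0.22 (edgeR adjusted p = 1.03e-06) and Trib3 rose by 2.81 ± 0.30 (edgeR adjusted p = 1.85e-05). Chac1, which degrades glutathione, stood at 1.42 to 2.52 CPM in members, a level of few UMIs, against 0.302, 0.120 and 0.298 CPM in the other cells, and rose by 3.11 ± 0.61 (edgeR adjusted p = 0.00232). The transcription factor genes Atf5, Atf3 and Atf4 rose by 1.66 ± 0.14, rose by 1.51 ± 0.13 and rose by 0.74 ± 0.09.

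Promoter sequence is shown for Asns and Chac1 because both rose in members and hold the element TGATGNAA, the core of the sites that ATF4 binds with C/EBP partners. Both are RefSeq sequences of GRCm38.p6, 250 bases before the start, 5′ to 3′ on the gene's strand, with the match in capitals. Asns lies at chr6:7693210-7693459 on the - strand with the match 23 to 16 bases before the start. Chac1 lies at chr2:119350992-119351241 on the + strand with the match, read on the opposite strand, 193 to 186 bases before the start.
Asns: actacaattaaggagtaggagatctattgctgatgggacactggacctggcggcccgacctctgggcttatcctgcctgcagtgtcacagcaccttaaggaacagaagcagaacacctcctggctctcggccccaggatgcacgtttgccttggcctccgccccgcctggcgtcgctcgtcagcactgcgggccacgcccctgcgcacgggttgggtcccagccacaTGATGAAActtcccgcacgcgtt
Chac1: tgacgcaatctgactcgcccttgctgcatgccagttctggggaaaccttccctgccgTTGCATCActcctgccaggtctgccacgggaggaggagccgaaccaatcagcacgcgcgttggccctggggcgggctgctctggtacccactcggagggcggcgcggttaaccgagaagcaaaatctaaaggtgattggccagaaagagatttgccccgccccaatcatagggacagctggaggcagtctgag

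On both strands the element was found in 3.45% of all 32851 promoters, for 3.91% of genes, and in 8 of the 27 genes of the list that have a promoter in the table. The list was made of genes of the ATF4 response after values had been seen, so its share is no test against all genes. TGATGNAA was found in 1 of the 23 genes of the lysosomal membrane and MITF/TFE list. The element TCACGTGA was found in 0 of the 27.

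Inflammatory genes went both ways. Of 16 cytokine and chemokine genes, 7 were higher and 4 lower, with a median of 0.70. Il1b, a secreted interleukin, stood at 1.99, 5.04 and 8.83 CPM in members, against 12.9, 33.7 and 52.5 CPM in the other cells, and fell by 2.56 ± 0.15 (edgeR adjusted p = 1.17e-07). Its relative Il1a stood at 37.8, 44.9 and 38.6 CPM in members, against 17.3, 21.8 and 17.9 CPM in the other cells, and rose by 1.19 ± 0.10 (edgeR adjusted p = 1.64e-06). The interleukin-1 genes thus differed in direction within the same cells. Ccl3, a monocyte-attracting chemokine, rose by 3.11 ± 0.20 (edgeR adjusted p = 2e-07), although 1 cell held 61.0% of its UMIs in the 1.5 ppm members, where the level was 84.7 CPM with that cell and 33.2 CPM without it. Ccl6, a chemokine of macrophages, rose by 0.86 ± 0.09, and Osm and Il1rn fell by 1.25 ± 0.28 and fell by 0.44 ± 0.09. For Ccl4, called higher, 1 cell held 84.0% of the UMIs in the 1.5 ppm members.

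Of 9 class II presentation genes, 8 were lower in members and 0 higher, with a median of -0.99, and DESeq2 called 4 lower. Cd74, the invariant chain, stood at 88.3, 119 and 224 CPM in members, against 296, 287 and 284 CPM in the other cells, and fell by 0.99 ± 0.17 (edgeR adjusted p = 0.000991). Its member level after 1.5 ppm was closer to that of the other cells than after air or 1 ppm. Of 15 matrix and repair genes 1, Igf1, was higher, 4 were lower and 10 were not called, with a median of -0.28 that was 0.09 after thinning and 0.10 without cells holding 2 or more markers of another type. Fn1 (fibronectin) stood at 172, 234 and 215 CPM in members, against 289.7, 550.1 and 509.9 CPM in the other cells, and fell by 0.99 ± 0.09 (edgeR adjusted p = 3.05e-06). Tgfbi, a matrix protein, fell by 0.89 ± 0.06, and the protease genes Mmp12 and Mmp8 fell by 1.09 ± 0.24 and fell by 1.25 ± 0.15.

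Some cell cycle genes were lower in members, in numbers that depended on the setting. Of 24 G2 and M phase genes, 14 were lower and 0 higher, with a median of -0.72, and of 22 S phase genes, 10 were lower and 0 higher, with a median of -0.37. The G2 and M phase list summed to 257, 277 and 1363 CPM in members after air, 1 ppm and 1.5 ppm, and to 723, 690 and 1463 CPM in the other cells. The S phase list summed to 683, 512 and 966 CPM in members and to 860.3, 821 and 1403 CPM in the other cells. The gap was thus small after 1.5 ppm for the G2 and M phase list and present at each exposure for the S phase list. Mki67, a proliferation marker, stood at 23.9, 27.0 and 182 CPM in members, against 63.9, 63.2 and 182 CPM in the other cells, with 1 cell holding 36.9% of its UMIs in the air members and 1 cell 44.9% in the 1 ppm members. Of the G2 and M phase genes 0 passed when the top 5% was taken within each library, 2 after thinning and 0 without cells holding 2 or more markers of another type. Of the S phase genes 3 passed with the ranking within libraries and 2 after thinning, where their median was -0.05. At 5000 UMIs per cell, 7.98, 3.72 and 16.9% of members had at least 3 UMIs of the list, against 10.8, 9.38 and 24.3% of the other cells. Without thinning the shares were 32.4, 26.6 and 41.6% of members and 31.7, 32.8 and 43.6% of the other cells.

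The remaining lists were as follows. Of 19 zinc transporter and metallothionein genes, 6 were higher and 0 lower with a median of 0.17, among them Slc30a1, a zinc exporter, which rose by 0.84 ± 0.21. With totals alone they were 4 and 1. Of 19 genes of membrane repair and calcium binding, the pathway of Dysf, 5 were higher and 5 lower with a median of 0.02. Myof, a relative of Dysf, rose by 0.87 ± 0.06, Anxa4, an annexin, rose by 0.61 ± 0.06, and S100a4 fell by 1.31 ± 0.20. Of 30 alveolar macrophage genes and regulators, 15 were higher and 4 lower with a median of 0.24, but 10 and 8 with totals alone. Of 23 nuclear respiratory chain genes, 8 were higher and 1 lower with a median of 0.10, but 2 and 1 with totals alone. Glycolysis gave 3 of 15 higher and 0 lower with a median of -0.02, but 3 and 3 with totals alone. Heat shock gave 3 of 15 higher and 0 lower with 0.17, and type I interferon genes 1 of 18 and 0 with 0.10. The shares higher in these lists, 20, 20 and 5.56%, compare with 10.1% over all genes tested.

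**Figure D3:**
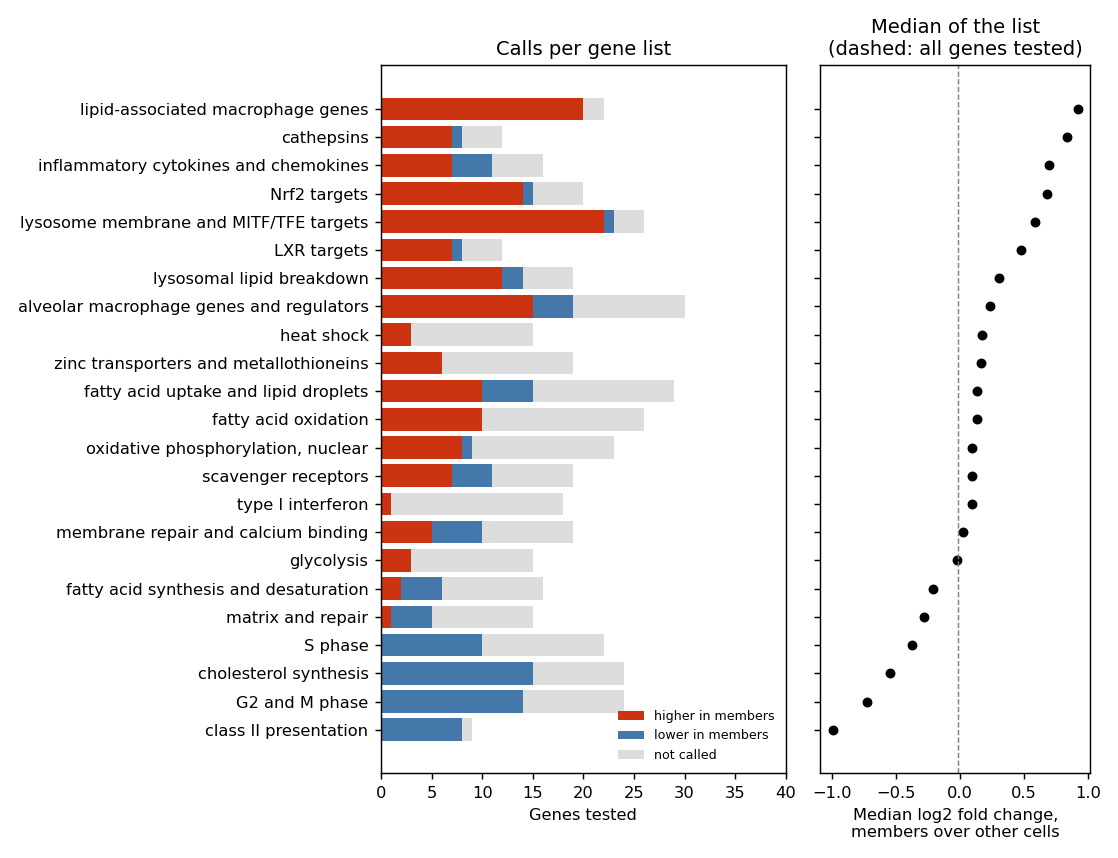
Numbers of tested genes called higher, called lower or not called in members (left, stacked bars) and the median log2 fold change of each list (right, points; the dashed line marks -0.02, the median of all genes). Lipid-associated macrophage genes have a median of 0.92 and class II presentation genes one of -0.99.

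Most markers of other cell types were low in members. T cell markers summed to 0.568, 0.458 and 2.0 CPM in members and to 5.17, 2.74 and 3.35 CPM in the other cells, with 7 of 10, Cd3d and Cd3e among them, at 0 in members. In members 8 of 8 B cell markers, 9 of 10 fibroblast or adipocyte markers, 5 of 7 mast cell or basophil markers and 8 of 12 endothelial markers, Cldn5 and Cdh5 among them, were at 0. The endothelial list summed to 146 to 161 CPM in members and to 123 to 142 CPM in the other cells, nearly all of it Vwf and Calcrl. Dendritic cell markers summed to 19.6 to 30.7 CPM in members and to 32.3 to 46.2 CPM in the other cells, with Fscn1 at 0 in members. Of the 9 tested 4 were called lower and 0 higher. Clec9a stood slightly above the other cells, at 10.8, 9.84 and 12.1 CPM in members against 8.92, 6.80 and 10.5 CPM. Markers of monocytes or interstitial macrophages summed to 41.5, 12.6 and 55.3 CPM in members, against 31.5, 29.4 and 30.4 CPM in the other cells. Of these, Ly6c2 and Cd163 were at 0 in members, and of the 6 tested 0 were called higher or lower. C1qa stood at 11.9, 0 and 11.4 CPM in members, against 6.27, 3.04 and 5.14 CPM in the other cells. Ms4a7 stood at 13.3, 8.01 and 17.0 CPM against 9.84, 9.17 and 7.01 CPM, and Ccr2 at 1.42, 2.29 and 10.1 CPM against 6.66, 9.23 and 9.98 CPM. Epithelial markers summed to 67.3, 166 and 66.1 CPM in members, against 125, 83.1 and 1064 CPM in the other cells, with Krt5 at 0 in members. Of the 8 epithelial markers tested 1 was called higher and 2 lower. Leaving out cells with 2 or more markers of another type, 56.1% of members and 50.3% of the other cells, gave 908 genes higher and 723 lower. Some of these markers, such as Vwf, Calcrl and Epcam, were found in members and other cells of every library, and detection rises with depth. A cell left out was thus not shown to be of another type.

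Over ranges of the score, genes differed in pattern. Cd63 stood at 851, 822 and 1210.2 CPM in the top 1% of eligible cells after air, 1 ppm and 1.5 ppm, and at 347, 416 and 545 CPM in the range just outside the members, from the top 5 to the top 10%. In the lower-scoring 50% of cells it stood at 94.8, 128 and 132 CPM. Asns was at 31.7, 47.5 and 31.6 CPM in the top 1% and at 8.36, 6.82 and 5.69 CPM in the range just outside. Il1b ran the other way, at 19.5, 51.2 and 72.9 CPM in the lower-scoring 50% and at most 6.32 CPM in the top 1%. Fabp4 after 1.5 ppm stood at 136 CPM in the top 1%, which was 24 cells, and at 1359 CPM in the next 1.5% of cells, where air and 1 ppm showed no such drop. Hmox1 and Slc7a11 after air were higher just outside the members, at 1068 and 307 CPM, than in the top 1%, at 571 and 186 CPM. Apoe after 1.5 ppm stood at 1978 CPM in the top 1% and at 56.4 CPM from the top 2.5 to the top 5%.

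**Figure D4:**
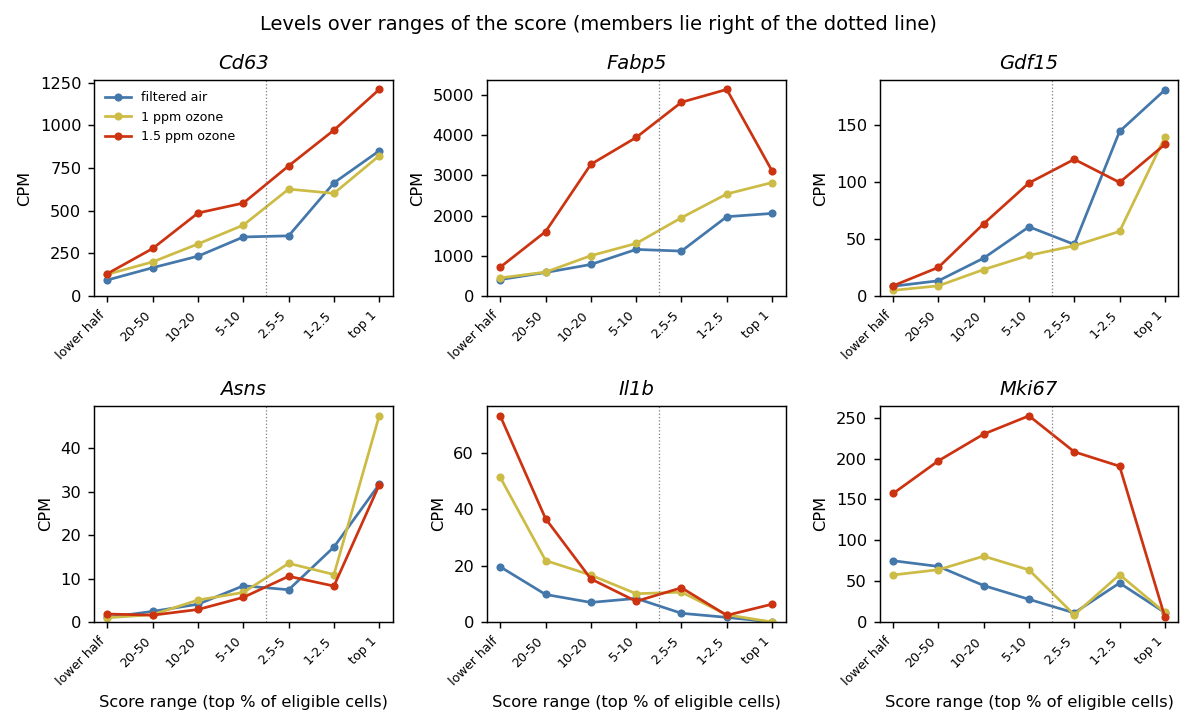
Level (CPM, y axis) of 6 genes in successive ranges of the score, from the lower-scoring 50% of eligible cells to the top 1%, by library. Cd63 and Asns climb towards the top 1%, Il1b declines, and Mki67 after 1.5 ppm lies between 157 and 252 CPM until the top 1%, where it is 6.32 CPM.

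Among members, Gpnmb-led and Colec12-led cells had different levels of lysosomal and lipid carrier genes. Cd63 stood at 957, 791 and 929 CPM in Gpnmb-led members after air, 1 ppm and 1.5 ppm, and at 286, 410 and 469 CPM in Colec12-led members. Fabp5 stood at 2673, 3802 and 5595 CPM in Gpnmb-led members and at 769.8, 1398 and 2159 CPM in Colec12-led members. In each library the Gpnmb-led cells were thus richer in both genes than the Colec12-led ones. Cd36-led members stood at 405, 761 and 1025 CPM for Cd63, above the Gpnmb-led ones after 1.5 ppm, and at 1343 to 3156 CPM for Fabp5. Rgcc-led members reached 5819 CPM of Fabp5 after 1.5 ppm, also above the Gpnmb-led ones. Slc7a11 stood at 599, 73.0 and 104 CPM in Gpnmb-led members and at 201, 64.4 and 119 CPM in Colec12-led members. These groups were formed from the members' own values, held 41, 36 and 90 Gpnmb-led and 32, 46 and 28 Colec12-led cells, and were not tested.

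Members after 1 ppm ozone differed little from members after filtered air. A gene was counted as differing where the levels were 2-fold apart and the higher one reached 50 CPM. Of 3938 genes considered, 5 (0.127%) were higher and 13 (0.33%) lower after 1 ppm, against 2 and 6 of 4036 in the other cells. Member sums held 3057728 to 4369173 UMIs a library and those of the other cells 33243144 to 87148700. Counting error and single cells thus weighed more on the ratios of members, and counts of the 2 sets are not directly comparable. The median log2 ratio was -0.11, and there is no test, since each exposure is 1 library. Apoc1, an apolipoprotein, stood at 54.5 CPM after 1 ppm and 9.66 CPM after air in members (ratio 5.64, exact conditional interval 3.93 to 8.34), against 34.4 and 16.3 CPM in the other cells. Spp1 stood at 394 and 172 CPM in members (ratio 2.29, 2.08 to 2.51), against 386 and 237 CPM in the other cells. S100a6, a calcium-binding protein, had a ratio of 2.04. For Sftpc, the surfactant protein of alveolar type II cells, 1 member held 99.3% of the UMIs after 1 ppm, and its level there was 94.3 CPM with that cell and 0.691 CPM without it.

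Genes lower after 1 ppm included stress genes. Slc7a11 stood at 42.3 CPM after 1 ppm and 266 CPM after air in members (ratio 0.159, interval 0.135 to 0.186), against 20.9 and 58.7 CPM in the other cells. Mt2, a metallothionein, stood at 99.3 and 249.6 CPM in members (ratio 0.398), against 48.3 and 259 CPM in the other cells. Both sets of cells thus had less of either gene after 1 ppm. Macrod2, Slc39a12, Ifih1 and Tbcel had ratios of 0.340, 0.355, 0.387 and 0.416. The near-identical Hsp70 genes Hspa1a and Hspa1b, whose reads cannot be divided with certainty, stood at 1.37 and 3.66 CPM after 1 ppm, against 60.8 and 82.1 CPM after air. In the air members 1 cell held 52.8% of the Hspa1a UMIs and 1 cell held 47.1% of those of Hspa1b.

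Members after 1.5 ppm ozone differed from members after air in more genes. Of 4065 genes considered, 73 (1.8%) were higher and 55 (1.35%) lower by the same rule, and the median log2 ratio was -0.13. In the other cells they were 63 and 14 of 4167, from sums of many more UMIs, so the 2 sets are not directly comparable here either. With TMM scaling the counts were 101 and 37, and without cells of at least 3 G2 and M phase UMIs 58 and 39. The highest ratios were those of genes of dividing cells. Mki67 stood at 182 CPM after 1.5 ppm and 23.9 CPM after air in members (ratio 7.65, interval 6.07 to 9.74), against 182 and 63.9 CPM in the other cells. Ube2c, which drives exit from mitosis, stood at 87.0 and 4.26 CPM in members (ratio 20.4, interval 12.2 to 37.0), against 85.3 and 39.3 CPM in the other cells. Of 13 G2 and M phase genes considered, 12 were higher. Cenpf, Cdca3, Birc5 and Nusap1 had ratios of 13.8, 9.16, 7.87 and 6.88, and the histone genes H1f5 and H2ac24, members of families with similar copies, ratios of 8.77 and 8.27. When cells with at least 3 UMIs of that list were left out, the log2 ratios of Birc5 and Cenpf were -0.40 and -1.40. Leaving out cells by UMIs of G2 and M phase genes lowers such genes by itself, so these values are a description.

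Lipid and presentation genes also differed in size after 1.5 ppm. Fabp5 stood at 4724 CPM after 1.5 ppm and 1598 CPM after air in members (2.96 times), against 1412 and 597 CPM in the other cells. Spp1 stood at 997 and 172 CPM in members (5.78 times), against 579.6 and 237 CPM in the other cells. H2-Aa, a class II chain, stood at 103 and 36.4 CPM in members, against 130.1 and 118 CPM in the other cells, with 1 cell holding 30.8% of the UMIs in the 1.5 ppm members. Lower were Acaa1b, a peroxisomal thiolase, with a ratio of 0.236, and Pltp, which transfers phospholipid, at 46.1 and 143 CPM in members (ratio 0.322), against 38.0 and 81.3 CPM in the other cells. Tppp3, Eeig2, Patj, the lipid receptor gene Ffar4 and Peli1 had ratios of 0.255, 0.322, 0.326, 0.365 and 0.383. Slc7a11 had a ratio of 0.377, and its log2 ratio was 0.14 when cells with at least 3 UMIs of the G2 and M phase list were left out.

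**Figure D5:**
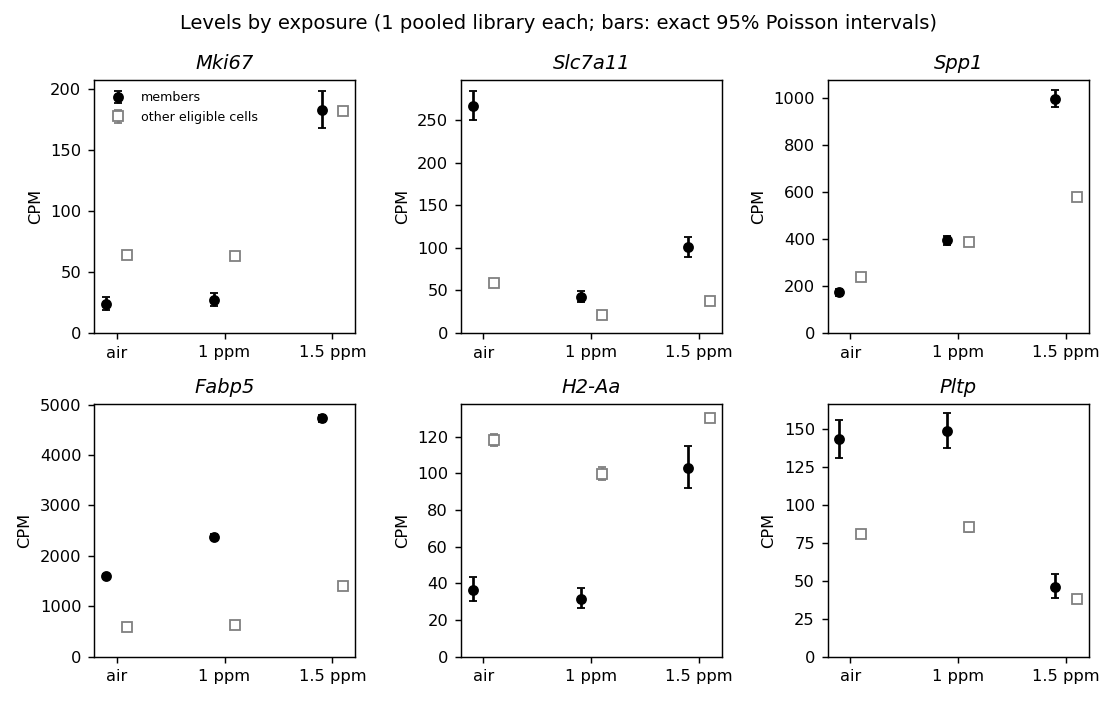
Level (CPM, y axis) of 6 genes by exposure in members (filled circles) and in the other eligible cells (open squares), 1 pooled library per exposure, with exact 95% Poisson intervals. Mki67 in members is below the other cells after air and 1 ppm and level with them, at 182 CPM, after 1.5 ppm, and Fabp5 is higher in members at each exposure.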

How the data were processed

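The authors deposited raw UMI counts for each barcode and gene, from Cell Ranger 8.0.0 and genome GRCm39 (mm39) by the submitters' processing notes (the handling of intronic reads was not in the sources used). All 3 libraries were used. Counts were summed per library over members and over the other eligible cells, and the 6 sums were fitted with edgeR 4.0.16 (R 4.3.3; quasi-likelihood test, TMM factors, library as block, library sizes without the 7 score genes, filterByExpr, Benjamini-Hochberg adjustment over all genes, called at 0.05). Members and other cells of a library come from the same pool of mice, which is where the pairing comes from. The p-values of the fit rest on the spread of the contrast over 3 pools of differing exposure, drawn towards that of other genes. A small value thus does not show that a gene's own 3 contrasts were alike. On counts simulated with the same fixed spread for every gene, the fit recovered most, not all, of the known changes, set in well-counted genes. The simulation held no single cells rich in a gene, so it does not show how the fit does on such genes. Exposures were compared as CPM over member sums, with exact Poisson and conditional 95% intervals that cover counting error only. Genes were named by rule: 12 highest and 12 lowest log2 fold changes with at least 20 CPM, up to 4 per list, and 8 each way per exposure, and others given beside them were chosen after their values were seen. Members and gene lists were chosen with earlier results of these data known. Python 3.11.15, scipy 1.17.1 and DESeq2 1.42.0 were also used. Alternatives were other scalings, filters, rankings and left-out libraries. Levels without the member cell richest in a gene, and shares without cells holding markers of another type, were chosen after seeing the data.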

Additional observations from a re-analysis of the deposited data

Results flagged for a closer look

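The share of eligible cells that were members differed between exposures, at 1.55 times the air share after 1 ppm (8.88 against 5.72%) and 0.534 times after 1.5 ppm (3.05 against 5.72%), so the doses lay on either side of air. This difference was not tested, since each exposure is 1 pooled library.

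Barcodes above 10% mitochondrial UMIs were left out of the comparisons. Among those with at least 5000 UMIs, 9.33% after 1 ppm (36 of 386) and 11.3% after 1.5 ppm (7 of 62) reached the members' score, against 5.49% after air (41 of 747). The interval for 1.5 ppm, 4.66 to 21.9%, includes the air value. With no mitochondrial limit the share of members after 1 ppm was 1.61 times that after air and after 1.5 ppm 0.546 times.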

How the results depend on the processing

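Over 14 alternatives to the fit, the log2 fold change of Cxcr1 lay between 3.14 and 3.64, of Gdf15 between 2.48 and 3.03 and of Cd63 between 1.73 and 2.09, past the threshold in each. The count of genes higher and lower (1367 and 1322) was 281 and 146 with no replicate block, that is with the pairing of members and other cells within a library left out, 769 and 645 with cells thinned, 908 and 723 without cells holding 2 or more markers of another type, and 2039 lower with totals alone. Leaving out 1 library in turn gave 646 to 1539 higher and 439 to 1413 lower. DESeq2 gave 1150 and 899. The share after 1 ppm was 1.21 times that after air for the top 10%. After 1.5 ppm it was 0.415 times for the top 2.5%, 0.816 without Cd36 and 0.364 without Gpnmb. Among members after 1 ppm, the higher and lower genes (5 and 13) were 9 and 8 with TMM scaling and 9 and 32 after thinning, 22 were lower with ranking within libraries, and 2 were higher without cells of 3 or more G2 and M phase UMIs.

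Directions turned for Scgb1a1 (0.14) and Ccl4 (-0.50) without cells holding 2 or more markers of another type, and for S100a9 (1.43) in the top 10%. Leaving out 1 library in turn gave Sftpc values of -0.40 (without 1 ppm) to 4.08, and it was -1.91 in the top 2.5%, -1.52 with ranking within libraries and -0.84 without cells of 3 or more G2 and M phase UMIs. Its log2 ratio after 1 ppm turned to -2.59 with ranking within libraries and -2.51 without those cycling cells. Without them the log2 ratios after 1.5 ppm were -0.40 for Birc5, -1.40 for Cenpf and 0.14 for Slc7a11. For Birc5, Cenpf and Scgb1a1 the cells left out were chosen by genes of the same kind or list, so these turns follow in part from the filter. For Sftpc 1 cell held nearly all UMIs of the 1 ppm members, and for Ccl4 1 cell held most of those of the 1.5 ppm members. For Slc7a11 1 cell held a smaller part of those of the air members, as given above. The causes of these turns and of that of S100a9 were not tested. Depth limits genes of a few CPM, such as Chac1 and Rragd.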
